A study of Homo sapiens with 5 samples.

Results

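In MIA PaCa-2 cells, an established human pancreatic cancer line, 1509 genomic regions carried a peak of the Mediator subunit MED30 and none of the subunit MED17, and lay over 1 kb from every start and end of a protein-coding gene. They were chosen from the peak lists of parental cells. The MED17, MED30 and MYC lists were merged wherever peaks shared at least 1 bp on chromosomes 1 to 22 and X, which gave 19126 regions, and regions in stretches of over 2 Mb without any RefSeq gene were left out. Of the 1509 regions, 366 also held a parental MYC peak and 1143 did not. They are set beside the 2034 distal regions that passed the same location limits with both subunits (shared regions), and beside the 1126 with MED17 and no MED30. The word distal holds here for the outer ends of protein-coding genes only, because 129 of the 1509 regions overlapped an annotated promoter that lies inside a gene or belongs to a noncoding gene.

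The libraries were chromatin immunoprecipitation followed by sequencing (ChIP-seq) of 5 groups, with 1 library each. MYC was mapped in a MIA PaCa-2 line in which doxycycline switches on a short hairpin RNA that targets MED30 (the shMED30 line), once after 3 days of doxycycline and once with none. MED30, MED17 and MYC were mapped in parental cells under normal culture, with no doxycycline. For MED30 and MED17 the cells were treated with disuccinimidyl glutarate (2 mM, 20 min) before formaldehyde (1%, 10 min). For MYC they had the formaldehyde step only, so fixation differs wherever MYC is set beside Mediator. Whether the shMED30 line is a single clone is not given in the sources used here, and the loss of MED30 in it was not checked here.

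Mediator is a large coactivator complex that links transcription factors bound at enhancers and promoters to RNA polymerase II. MED17 is a core subunit of its head module, and MED30 is a metazoan subunit assigned to the same module. MYC is a transcription factor that binds DNA with its partner MAX, preferably at the E-box sequence CACGTG, and it drives the growth of many tumours, pancreatic cancer included.

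The lists held 12040 peaks for MED30, 13172 for MED17 and 14331 for MYC in parental cells, and 4621 with doxycycline and 7158 without it for MYC in the shMED30 line. The local background at each peak, in fragments, was recovered from the deposited fold and p. Its lowest value in a list was 1.65 for MED30, 1.603 for MED17 and 2.56 for parental MYC. In the shMED30 line it was 0.186 with doxycycline and 0.310 without it. The lowest summit that was called held 8 fragments in both Mediator lists, 10 in the parental MYC list, and 3 with doxycycline and 4 without it. No group has a replicate, so no difference below was tested and none carries a p-value. The 95% intervals were computed by the exact Clopper-Pearson method. They hold for counting error alone and take regions as independent of each other.

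The promoter sequences at 4 of the regions are shown first, because these regions can be tied to an annotated start. They are RefSeq windows on GRCh38.p14 from 250 bases before to 50 bases after an annotated start, printed 5′ to 3′ on the strand of the gene. Capitals mark matches on either strand to CACGTG (the E-box of MYC and MAX), CCAAT (the box bound by NF-Y, read as ATTGG on the other strand), GGGCGG (the box of SP and KLF factors, read as CCGCCC) and TGANTCA (AP-1). SNHG32 (chr6:31834666-31834965, plus strand) is a small nucleolar RNA host gene and the strongest of the promoter regions. NET1 (chr10:5446359-5446658, plus strand) encodes a guanine nucleotide exchange factor, and its window held MYC as well. NFIB (chr9:14314092-14314391, minus strand) encodes a transcription factor of the nuclear factor I family and also held MYC. MIR222HG (chrX:45770218-45770517, minus strand) is the host transcript of the microRNAs miR-221 and miR-222 and held no MYC. The MED30 summit lay inside the printed window at SNHG32, NET1 and MIR222HG, and 484 bp before the start at NFIB, outside it. These 4 were picked after their values were seen.
SNHG32: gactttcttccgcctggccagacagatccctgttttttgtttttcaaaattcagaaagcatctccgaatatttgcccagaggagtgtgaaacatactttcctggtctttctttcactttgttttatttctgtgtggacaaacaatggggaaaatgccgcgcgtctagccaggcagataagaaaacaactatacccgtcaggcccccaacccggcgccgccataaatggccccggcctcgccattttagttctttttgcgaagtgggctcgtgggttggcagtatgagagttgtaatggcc
NET1: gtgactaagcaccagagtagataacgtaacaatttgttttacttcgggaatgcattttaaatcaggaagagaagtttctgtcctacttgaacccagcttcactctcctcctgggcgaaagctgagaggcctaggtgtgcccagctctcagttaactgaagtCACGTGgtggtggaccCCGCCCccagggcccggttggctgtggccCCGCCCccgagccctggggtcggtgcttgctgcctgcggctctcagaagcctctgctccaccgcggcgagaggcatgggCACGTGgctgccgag
NFIB: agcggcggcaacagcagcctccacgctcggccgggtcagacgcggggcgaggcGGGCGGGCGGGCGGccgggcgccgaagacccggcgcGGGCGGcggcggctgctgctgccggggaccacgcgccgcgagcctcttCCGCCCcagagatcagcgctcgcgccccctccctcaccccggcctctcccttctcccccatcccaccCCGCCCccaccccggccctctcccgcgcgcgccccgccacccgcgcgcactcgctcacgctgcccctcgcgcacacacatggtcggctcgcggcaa
MIR222HG: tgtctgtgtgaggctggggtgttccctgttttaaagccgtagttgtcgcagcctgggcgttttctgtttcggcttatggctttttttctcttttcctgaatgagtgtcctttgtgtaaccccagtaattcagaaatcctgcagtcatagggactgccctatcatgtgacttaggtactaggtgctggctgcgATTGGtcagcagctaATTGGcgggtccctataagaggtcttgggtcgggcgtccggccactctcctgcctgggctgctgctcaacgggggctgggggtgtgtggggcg

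The NET1 window held 2 copies of CACGTG and 2 of GGGCGG, and the NFIB window held 6 of GGGCGG, some of which overlap each other. The MIR222HG window held 2 copies of CCAAT, both on the reverse strand. The SNHG32 window held none of the 4 motifs. GC content was 48.3% at SNHG32, 59.0% at NET1 and 54.7% at MIR222HG, and it was highest at NFIB. The window without a match was thus that of the strongest peak of the 4. Such a match describes the letters only and is not a measured site.

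At SNHG32 the region spanned chr6:31834631-31835137 with a MED30 fold of 7.39, and its summit lay 4 bp from the annotated start. The fold is the authors' own value, the summit pileup over the local background after a constant is added to both. Each fold below is read only against others of its list. The nearest protein-coding gene was HSPA1B, which encodes an inducible HSP70 chaperone, 4.38 kb away. MYC had no peak there in any of its 3 lists, and the nearest MED17 peak was 182 kb away. At NET1 the region (chr10:5446431-5446876) had a MED30 fold of 6.66, a MYC fold of 3.19 in parental cells, no MYC peak with doxycycline and a MYC fold of 7.59 without it. The NFIB region (chr9:14314034-14315442) had folds of 6.27 for MED30 and 4.80 for parental MYC, no MYC peak in the shMED30 line, and its nearest MED17 peak was 378 kb away. Another region with a MED30 fold of 4.56 and a parental MYC fold of 5.33 covered another annotated start of the same gene.

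The MIR222HG region (chrX:45770055-45770833) had a MED30 fold of 5.89 from a summit of 38 fragments. The hairpins of miR-222 (chrX:45747015-45747124) and miR-221 (chrX:45746157-45746266) lay 22.9 kb and 23.8 kb from it, inside the same host transcript on the minus strand. Their 3p arms are shown with bases 2 to 8, the seed that pairs with target transcripts, in capitals. Both arms share the seed.
hsa-miR-221-3p: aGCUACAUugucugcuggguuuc
hsa-miR-222-3p: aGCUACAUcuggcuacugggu
No miRNA hairpin was overlapped by any of the 1509 regions, against 12 of the 2034 with both subunits.

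MED30 peaks without MED17 were mostly weak ones. This is given as a description, because the MED30 and MED17 lists chose the regions. The MED30 fold was 1.98 at the lowest, 3.88 at the median and 8.68 at the highest in regions without MED17, with quartiles of 3.47 and 4.45. In distal regions with both subunits the median was 4.93, the quartiles were 4.17 and 5.91, and the highest was 20.1. The groups overlapped over most of the range, and they parted at the top: 4 of the 1509 regions, against 224 of the 2034, fell in the top 10% of the whole MED30 list. Above the median of that list stood 222 (14.7%), against 1102 (54.2%).

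The same order appeared in the fragments behind the peaks. The median summit pileup was 17 fragments without MED17 and 23 with both subunits, and the median peak width was 452 bp against 705 bp. The local background was close in both, with medians of 3.30 and 3.72 fragments. Distal MED17 peaks without MED30 were weak in their own list as well, with a median MED17 fold of 4.08 against 4.87 in the shared regions, and a median summit of 15 fragments.

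**Figure D1:**
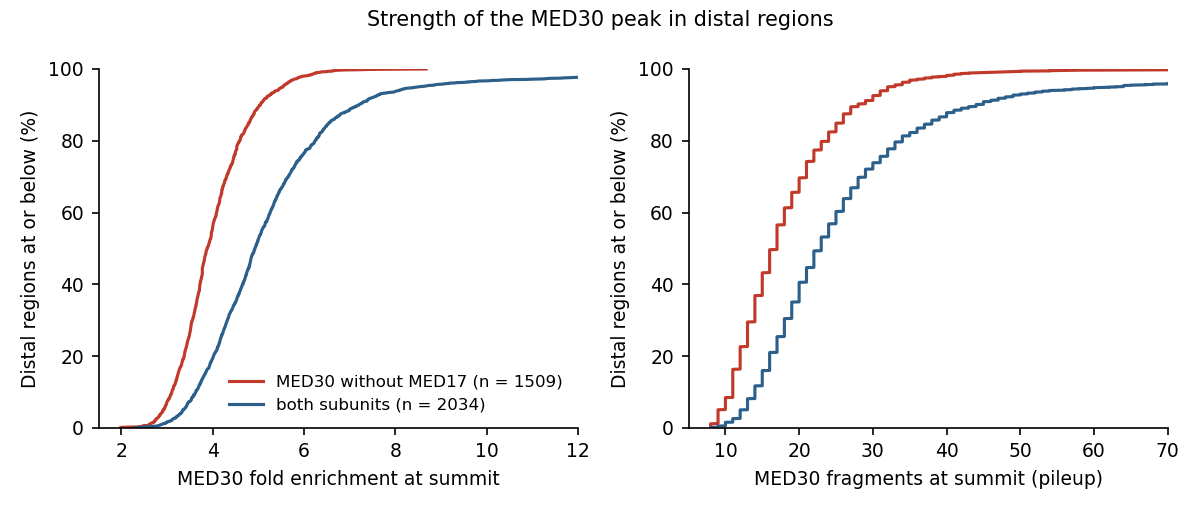
Cumulative share of distal regions (%) by MED30 fold enrichment (left) and by MED30 fragments at the summit (right), for regions with MED30 and no MED17 (red) and with both subunits (blue). The red curve lies to the left throughout, with medians of 3.88 against 4.93 in fold and 17 against 23 fragments; the axes end before the strongest shared peaks.

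All 3543 distal MED30 regions were divided into 10 bins of nearly equal size by MED30 fold. The share without MED17 was 42.6% over all of them. It was 75.8% in the weakest bin, 46.2% in the fifth and 3.38% in the strongest, where 12 of 355 regions lacked MED17, and each step up gave a lower share than the one before. The limit of calling is visible at the edges of the set. The smallest gaps to a MED17 peak were 2 bp at ARRDC3, an arrestin domain gene, and 4 bp near the corepressor gene TLE3 and near RBMX. Just outside, regions whose MED30 and MED17 peaks shared 4 bp (chr1:30718386-30719402, MED30 fold 4.25, MED17 fold 6.01) or 15 bp (chr16:71622-72572, 3.37 and 5.21) counted as having both. In all, 95 of the 1509 regions (6.30%) had a MED17 peak within 500 bp and 283 (18.8%, 16.8 to 20.8%) within 5 kb. The median gap was 28.3 kb, and 358 (23.7%) had no MED17 peak within 100 kb.

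At the other limit of the rule, the 3 regions just over 1 kb from a gene end were at LYRM4 (1.01 kb, MED30 fold 4.11), TAF11L10 (1.02 kb, 3.05) and C13orf42 (1.02 kb, 4.63). The 3 just within it, which were left out, were at RAP2B (3.04), DDR2 (3.41) and ARL6IP5 (4.18). Their folds covered the same range.

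**Figure D2:**
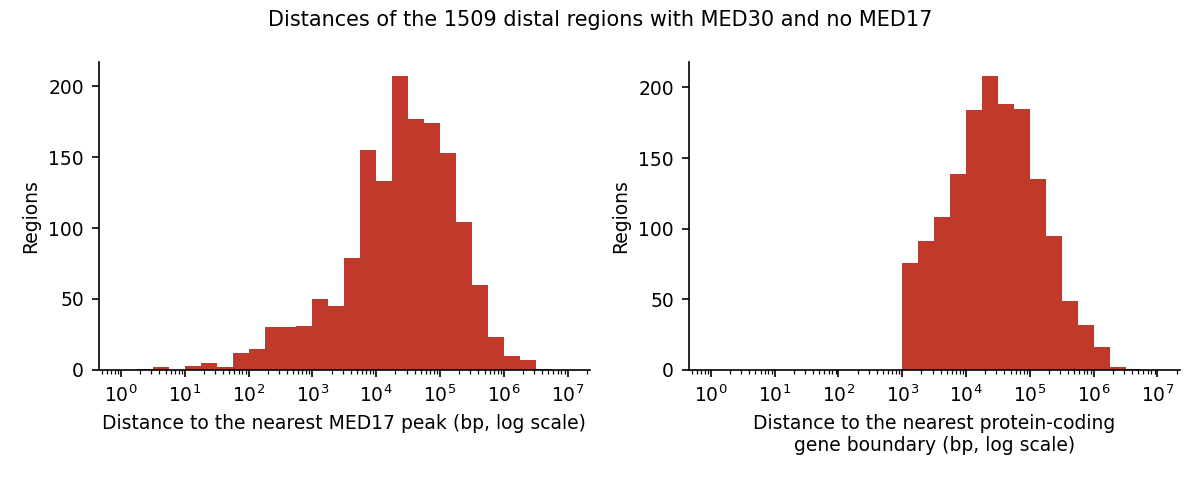
Number of the 1509 regions with MED30 and no MED17 by distance to the nearest MED17 peak (left) and to the nearest start or end of a protein-coding gene (right), both on a log axis in bp. The medians are 28.3 kb and 27.2 kb, and the right panel begins at 1 kb by the rule.

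MYC was present at fewer of the regions without MED17. A parental MYC peak lay in 366 of 1509 (24.3%, 22.1 to 26.5%), against 1363 of 2034 with both subunits (67.0%, 64.9 to 69.1%) and 339 of 1126 with MED17 and no MED30 (30.1%, 27.4 to 32.9%). Over the 4669 distal regions of the 3 kinds together the share was 44.3%. In 11 of the 2034 the MED30 and MED17 peaks were joined only through a MYC peak, so these held MYC by construction. MED30 peaks were also wider in shared regions (median 705 bp against 452 bp). The part of width in this share, and in the share at promoters below, was not tested. MYC was also more frequent where MED30 was stronger, and the part of MED30 strength in the lower share was not tested. By bin of MED30 fold, the share with MYC was lower without MED17 in 10 of the 10 bins. It was 18.2% against 48.8% in the weakest bin, 26.2% against 57.6% in the fifth and 47.3% against 75.6% in the ninth. In the strongest bin it was 33.3% of 12 regions against 73.5% of 343, with an interval of 9.92 to 65.1% on the small group. Where MYC did peak, its median parental fold was 4.08 without MED17 and 4.53 with both subunits. The 366 regions with MYC had a median MED30 fold of 4.12, and the 1143 without it 3.81. The share of 24.3% was 40.8% for MED30 peaks with a −log10 q of at least 10 (71 regions) and 37.8% with the upper 50% of the MED17 list. The latter choice counts regions with a weaker called MED17 peak as lacking MED17.

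**Figure D3:**
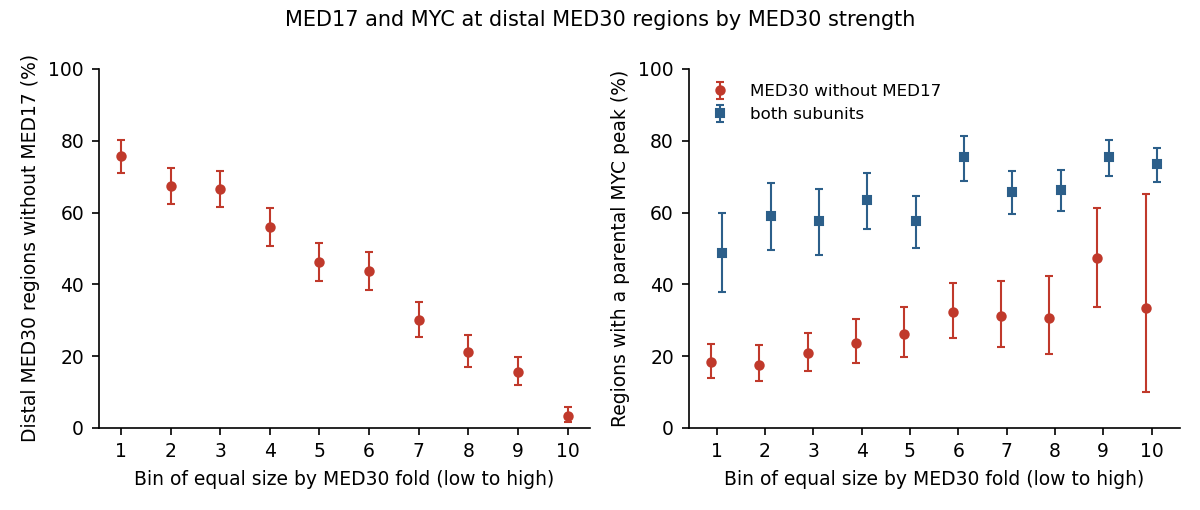
Left, share of distal MED30 regions without a MED17 peak (%), and right, share with a parental MYC peak (%) for regions without MED17 (red circles) and with both subunits (blue squares), in 10 bins of equal size by MED30 fold. Bars are exact 95% intervals; the left share is 75.8% in the weakest bin and 3.38% in the strongest, and the red circles lie below the blue squares in each bin on the right.

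In the shMED30 line MYC was also less frequent at regions without MED17. With doxycycline, 35 of 1509 did (2.32%, 1.62 to 3.21%), against 213 of 2034 with both subunits (10.5%, 9.17 to 11.9%) and 6.38% of the distal regions of all 3 kinds. Without doxycycline, 62 did (4.11%, 3.16 to 5.24%), against 332 (16.3%, 14.7 to 18.0%) and 9.81% over the 3 kinds. Of the 62 regions with MYC in the absence of doxycycline, 22 had it with doxycycline too (35.5%, 23.7 to 48.7%), against 151 of 332 shared regions (45.5%, 40.04 to 51.0%), and these intervals overlap. The lowest local background of the list was smaller with doxycycline (0.186 against 0.310 fragments), and the part of depth in the lower count was not tested. Most of the regions with MYC in this line also had it in parental cells: 28 of 35 with doxycycline and 49 of 62 without it. MYC was found in all 3 of its lists at 17 of the regions (1.13%). These counts were not made for shared regions, so they are not given as particular to this set. The shares depended on the choice of regions: with no gene-free stretch dropped they were 6.63% with doxycycline and 11.4% without it, and with the upper 50% of the MED17 list 4.51% and 7.27%. Both lists of this line reach a q of 0.0979 with doxycycline and 0.0993 without it, against 0.0499 in the parental MYC list. Limited to a q of at most 0.05, a choice made after seeing the data, the shares were 2.05% against 10.03% of shared regions with doxycycline and 4.04% against 16.0% without it.

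**Figure D4:**
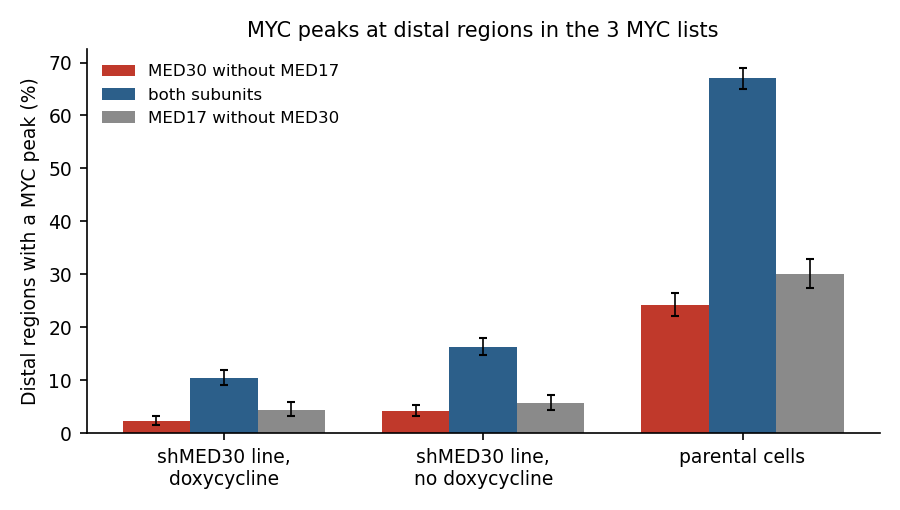
Share of distal regions (%) that held MYC in the shMED30 line with doxycycline, in the same line without it and in parental cells, for regions with MED30 and no MED17 (red), with both subunits (blue) and with MED17 and no MED30 (grey). Bars show exact 95% intervals; the regions without MED17 are the lowest in each list, at 2.32%, 4.11% and 24.3%, although red and grey overlap in their intervals without doxycycline, and the 3 lists differ in depth and in their limit of q.

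The highest MYC folds of the shMED30 line at these regions lay at MED30 peaks of very different strength, between percentile 0.0831 and 94.3 of the MED30 list. At TLCD1, which encodes a membrane protein with a TLC domain, the region chr17:28725802-28726445 had MYC folds of 9.99 with doxycycline, 9.58 without it and 3.67 in parental cells, beside a MED30 fold of 2.98 (percentile 1.83). Inside IGK, the immunoglobulin kappa light chain locus, the folds were 8.92, 9.86 and 6.92, with MED30 at 5.72. In the pseudogene FAM86KP near FAM90A26 they were 7.49, 13.2 and 10.6, with MED30 at 3.86 and a MED17 peak 59 bp away. MYC peaks were thus called in all 3 lists at each of these regions. Sequence shared with other copies was not checked, so the placing of reads at the IGK locus and the pseudogene is uncertain.

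The region 43.6 kb from CWH43 (chr4:49105686-49106205) had MYC folds of 8.74 with doxycycline, 6.64 without it and 2.21 in parental cells. Its MED30 fold of 1.98 was the lowest of all 1509, from a summit of 74 fragments over a local background of 36.8. The medians over the 1509 were 17 and 3.30 fragments. Whether reads pile up there from repeated sequence was not tested. At a region 203 kb from its nearest gene DEFB115, a beta-defensin gene, the 3 MYC folds were 7.05, 6.58 and 4.12. At a region 206 kb from its nearest gene TENM3, which encodes a teneurin of the neuronal surface, they were 4.22, 9.08 and 7.29. At PHRF1 they were absent with doxycycline, 8.88 without it and 9.54 in parental cells. PHRF1 was the region of these 7 without a doxycycline peak, and the MYC folds of different lists are given side by side without a comparison because depth and the limit of q differed.

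Regions close to the gene-free stretches, most of which surround centromeres, carried MYC more often. Of the 29 regions within 1 Mb of such a stretch, 17 had parental MYC (58.6%, 38.9 to 76.5%), against 349 of the 1480 others (23.6%, 21.4 to 25.8%). Leaving them out would therefore change the share with MYC by less than 1 percentage point.

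The regions lay away from annotated genes more often than shared ones. Of the 1509, 615 were outside every RefSeq gene (40.8%, 38.3 to 43.3%), against 510 of 2034 with both subunits (25.1%, 23.2 to 27.0%) and 283 of 1126 with MED17 and no MED30 (25.1%). Inside a protein-coding gene lay 581 (38.5%, 36.0 to 41.0%), against 962 (47.3%, 45.1 to 49.5%) and 632 (56.1%, 53.2 to 59.1%), where the 3 kinds together gave 46.6%. Inside a noncoding gene only lay 313 (20.7%), against 562 (27.6%) and 211 (18.7%). The share inside a protein-coding gene was lower without MED17 in 9 of the 10 bins of MED30 fold. The median distance to the nearest end of a protein-coding gene was 27.2 kb, against 15.8 kb with both subunits and 15.9 kb with MED17 and no MED30, and 330 regions (21.9%), against 204 (10.03%) and 141, lay over 100 kb away.

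Of the location measures compared, promoters showed the largest gap. A RefSeq promoter window was overlapped by 129 of 1509 regions (8.55%, 7.19 to 10.1%), against 716 of 2034 with both subunits (35.2%, 33.1 to 37.3%) and 243 of 1126 with MED17 and no MED30 (21.6%, 19.2 to 24.1%), and by 23.3% of the 3 kinds together. The share was lower without MED17 in 10 of the 10 bins, at 5.58% against 14.0% in the weakest and 16.4% against 41.1% in the ninth. Windows of protein-coding genes were overlapped by 70 of the regions and windows of lncRNA genes by 66. MYC lay at 51 of the 129 (39.5%, 31.0 to 48.5%), against 315 of the 1380 without a window (22.8%, 20.6 to 25.1%). Shared regions had the same order, with MYC at 546 of 716 with a window (76.3%) and 817 of 1318 without one (62.0%).

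**Figure D5:**
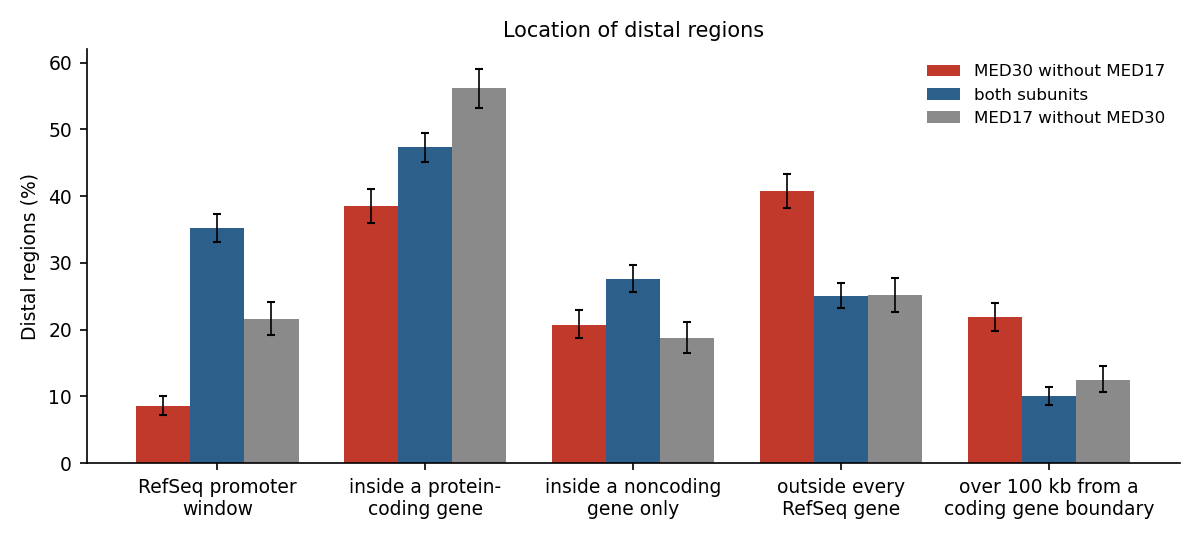
Share of distal regions (%) by annotation, for regions with MED30 and no MED17 (red), with both subunits (blue) and with MED17 and no MED30 (grey); bars show exact 95% intervals. Red is lowest at promoter windows (8.55%) and inside protein-coding genes (38.5%) and highest outside every gene (40.8%) and over 100 kb from a coding gene end (21.9%).

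Several of the promoter regions were at alternative starts of known regulators or, for MALAT1, at the start of a noncoding gene. These were picked for naming after the values were seen. RARA, the retinoic acid receptor alpha, had a MED30 fold of 5.57 and a MED17 peak 40 bp away. TET1, an enzyme that oxidises methylated cytosine, had 5.49 and its nearest MED17 peak 38.8 kb away. PCLAF, a partner of the replication clamp PCNA, had 5.43. None of these had MYC in parental cells. TP63, the basal lineage transcription factor, had 4.87 without MYC and with a MED17 peak 0.473 kb away. KLF5, a Krüppel-like transcription factor of epithelia, had 3.77 with a MYC fold of 4.21 and its nearest MED17 peak 277 kb away. MALAT1, an abundant nuclear lncRNA, had a fold of 4.34 from a summit of 83 fragments with a MYC fold of 3.75, and MED17 peaked 1.20 kb away. It counted as distal because the rule used the ends of protein-coding genes only.

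Motifs were counted on both strands in 1 window per region. CACGTG was found in 15 of the 129 windows (11.6%, 6.66 to 18.5%), against 8.38% of the 716 windows of shared regions and 7.27% of all 34961 RefSeq windows. The general E-box CANNTG was found in 72.1% of windows without MED17, 58.2% of shared windows and 68.7% of all, and each match to the sequence before it is also a match to this one. CCAAT was found in 41.1%, 33.7% and 34.6%. The first 2 of these 3 shares overlap in their intervals for CACGTG and for CCAAT, and not for the general E-box. The box of SP and KLF factors, GGGCGG, was in 60.5% (51.5 to 69.0%), against 73.2% (69.8 to 76.4%) and 45.0%, so that windows without MED17 stood between the shared ones and promoters at large. GC content followed the same order, with medians of 63.7%, 67.3% and 58.7%, and so did the count of CpG, with medians of 20, 27 and 14 per window.

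For the other motifs the intervals of regions without MED17 and of shared regions overlapped, and the shares are given in the same order of sets. TGANTCA of AP-1 was in 10.1%, 7.54% and 7.68%, GGAATG of TEAD in 14.0%, 10.6% and 14.0%, TGTGGT of RUNX in 14.0%, 8.94% and 13.1%, CCGGAAG of ETS in 15.5%, 15.9% and 10.3%, and TGTTTAC of forkhead factors in 3.88%, 2.37% and 3.42%. The CTCF motif was in 0 of the 129 and 0 of the 716 windows, and the B box of RNA polymerase III promoters in 0 of the 129 and 2 of the 716. Sequence at the regions outside promoter windows was not analysed here.

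Genes of small RNAs were overlapped mostly by shared regions. Genes annotated as snRNAs, a class that holds the RNAs of the spliceosome, were overlapped by 0 of 1509 regions (upper limit 0.244%). This compares with 42 of 2034 with both subunits and 2 of 1126 with MED17 and no MED30. In the 42 shared regions, many of them at repeat copies, the median MED30 fold was 12.9 and the highest 20.1. Genes of snoRNAs were overlapped by 0 against 10, and by 0 of the 1126 with MED17 and no MED30. Genes of tRNAs, which RNA polymerase III transcribes, were overlapped by 8 (0.530%, 0.229 to 1.04%), against 30 (1.47%, 0.997 to 2.10%), with median MED30 folds of 4.02 and 4.45. These intervals overlap slightly. Regions with MED17 and no MED30 were close to the set, with 7 of 1126 (0.622%, 0.250 to 1.28%). The 8 without MED17 were at TRN-GTT7-1 (5.06), TRT-CGT2-1 (4.90), TRE-TTC2-2 (4.53), TRR-CCG2-1 (4.34), TRY-GTA5-4 (3.70), TRF-GAA1-3 (3.44), TRS-GCT4-3 (3.44) and TRS-AGA2-1 (3.00), and 3 of them held MYC. The 45S ribosomal RNA repeats RNA45SN2 and RNA45SN3 were overlapped by 2 of the regions, both with MYC and with a highest MED30 fold of 2.47, against 0 of the shared regions. Repeat copies of rRNA, tRNA and snRNA genes share sequence, so the placing of reads among them is uncertain.

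Of the 12 strongest regions without MYC in parental cells, 6 lay inside a protein-coding gene and the others between 4.38 and 44.2 kb from one. First came LOC124900586 (chr16:846586-847124, MED30 fold 8.68), an uncharacterised protein-coding gene, and then SNHG32. SPATA13, a guanine nucleotide exchange factor, followed with 7.22 (chr13:24148563-24149208), a pseudogene 21.6 kb from GOLGA6L7 with 6.89, and SDK1, an adhesion molecule of the immunoglobulin family, with 6.79. The SDK1 region (chr7:3976498-3976926), 665 kb from any MED17 peak, had MYC folds of 4.85 with doxycycline and 7.02 without it, although parental cells had none. None of the other 11 held MYC in any list. They included RALGDS, an exchange factor for Ral GTPases that acts downstream of RAS (6.61), a site 31.7 kb from THOC2, a subunit of the mRNA export complex THO (6.38), the tyrosine phosphatase genes PTPRS (11.4 kb away, 6.37) and PTPN3 (6.21), and SP110 with SP140, genes of nuclear body proteins (6.18). Regions outside every gene, 12.7 kb from RABL2A (6.66) and 44.2 kb from C19orf12 (6.51), made up the rest.

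The 8 strongest with parental MYC were led by PHRF1, a PHD and RING finger gene, with a MED30 fold of 7.81 and a parental MYC fold of 9.54 (chr11:585255-585631). NET1 came next. The region near KLK15, a kallikrein peptidase gene, had MED30 at 6.64 and MYC folds of 3.26 with doxycycline, none without it and 5.70 in parental cells. SMOX, the spermine oxidase gene of polyamine breakdown, had 6.35 for MED30, with MYC absent with doxycycline, at 5.07 without it and at 6.34 in parental cells. ERVMER34-1, an endogenous retroviral envelope gene, lay 19.9 kb from a region with folds of 6.50 for MED30 and 3.50 for parental MYC. GPRC5C, an orphan receptor gene, had 6.27 and 6.49. The region nearest to EPHA3, 1507 kb from that receptor tyrosine kinase gene, had 6.28 and 4.59. Parental MYC folds among these 8 ranged between 3.19 and 9.54.

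Most of the regions had no other region of the same set close by. Shared regions and MED17 peaks were not counted for this. A MED17 peak lay within 5 kb of 283 of the 1509, and the first quartile of that gap was 7.75 kb. The share is not given for shared regions, so it is not shown to be particular to this set. Within 12500 bp of another of the set lay 240 of 1509 (15.9%), in 110 clusters of 2 to 5. The largest held 5 regions inside TPRG1, the neighbour of TP63 (chr3:189268098-189289207, 21.1 kb), with MED30 folds of 3.37, 2.79, 3.45, 3.17 and 2.83, and MYC in 1 of them. Next came 4 regions in 12.1 kb located 658 kb from the cadherin gene CDH9 (2.70 to 5.73, no MYC) and 4 in 15.1 kb of PKD1L1, a polycystin family gene (2.44 to 3.97, MYC in 1). A MED17 peak lay 3717 bp from the TPRG1 cluster and 1251 bp from the CDH9 cluster, and the nearest to the PKD1L1 cluster was 103379 bp away. Clusters of 3 lay at LINC01629 near IRF2BPL (3.71 to 4.56), with a MED17 region between them, and at the lncRNA gene LASTR near ASB13 (3.21 to 5.03). The median MED30 fold was 3.57 in the 240 regions near another of the set and 3.97 in the 1269 others. At or above the median of the MED30 list stood 20 of the 240 (8.33%), with a highest fold of 6.27 at NFIB, and 202 of the 1269 (15.9%).

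Some long genes held several regions, and these were named after their counts were seen. CUBN, which encodes the endocytic receptor cubilin, held 8 over 306 kb with a highest MED30 fold of 4.35, beside 2 shared regions. TPRG1 held 6 and SEMA3A, a secreted guidance ligand, held 5 over 537 kb. VMP1, an endoplasmic reticulum protein of autophagy, held 4 over 135 kb with no MYC, and LAMA2, a laminin chain, and BCAR3, an adaptor of the focal adhesion protein BCAR1, held 4 each. Among lncRNA genes, LINC00673 held 4 over 189 kb. Of all 19974 protein-coding genes, 502 held at least 1 region and 17 held 3 or more.

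Counted by neighbourhood, 2090 of 19974 protein-coding genes had one of the regions inside them or within 50 kb (10.5%, 10.0 to 10.9%), and 3455 had a shared region (17.3%, 16.8 to 17.8%). Both kinds were near 661 genes, which is 31.6% of the 2090 and 19.1% of the 3455. The median gene span was 25.9 kb near regions without MED17, 25.3 kb near shared regions and 24.2 kb over all genes. A longer gene has a wider neighbourhood, and the lists differed in median span, with 105 kb for actin and focal adhesion genes, 61.1 kb for the YAP and TEAD pathway, 39.4 kb for mesenchymal genes, 14.6 kb for RAS and MAPK output and 5.95 kb for basal pancreatic cancer genes. The part of span in the shares was not tested. The gene lists below have 11 to 31 members, so their intervals are wide, and a nearby region is not shown to act on the gene.

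Genes of RAS and MAPK output, a pathway that relays growth signals to transcription, had a region nearby in 8 of 25 cases (32.0%, 14.9 to 53.5%), against 10.5% of all genes; 9 of the 25 had a shared region. The strongest were at DUSP1, a MAP kinase phosphatase (MED30 fold 4.49, 9.21 kb away), HBEGF, an EGFR ligand (3.97), PHLDA1 (3.97, the highest of 4 nearby regions) and the ETS factor gene ETV1 (3.92, inside the gene). The receptor gene EGFR itself held 1 at 3.51. None of these had a MYC peak in any list. All stood below the median of the MED30 list.

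Genes of the YAP and TEAD pathway, which relays mechanical signals to transcription, had a region in 8 of 27 cases (29.6%, 13.8 to 50.2%), and 4 had a shared one. They included ARHGEF17, a guanine nucleotide exchange factor (4.61), NT5E, the ecto-5′-nucleotidase CD73 (4.21), TEAD1, the DNA-binding partner of YAP (4.11), and MYOF, a membrane repair protein (4.10, with MED17 264 kb away). The coactivator gene WWTR1 had 4.03. Mesenchymal genes had 7 of 26 (26.9%, 11.6 to 47.8%) with either kind. They included VIM, the intermediate filament vimentin (4.42), AXL, a receptor tyrosine kinase (3.97, at an internal promoter), and SMAD3, a mediator of TGF-beta signals (3.71, with MYC at 3.65), with ITGB1, CAV1 and PLAU below them. The CAV1 region had a MED30 fold of 3.14 and MYC folds of 6.61 without doxycycline and 6.78 in parental cells, and no MYC peak with doxycycline.

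Basal pancreatic cancer genes had 5 of 18 (27.8%, 9.69 to 53.5%), led by KRT17 (5.36), ITGB4 (5.27) and TP63 (4.87), with 1 region counted for both KRT15 and KRT14 (4.21). These are keratin, integrin and lineage factor genes of basal epithelia, and MYC was absent from the regions named. Classical pancreatic cancer genes had 1 of 20, at MUC1 (5.09). The intervals of these lists, 9.69 to 53.5% and 0.127 to 24.9%, overlap, and both include the 10.5% of all genes. Circadian genes had 4 of 15 (26.7%, 7.79 to 55.1%), an interval that also includes the share of all genes, and 6 of the 15 had a shared region. The 4 were BHLHE40, a transcriptional repressor (5.07, MYC 4.44), CRY2 (4.23), NR1D1 (3.84, MYC 4.56) and PER1 (3.44). The NR1D1 region lay inside the gene, 0.062 kb from a MED17 peak, and also counted for MED24, a Mediator subunit gene 44.4 kb away.

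In each of the next 8 lists, too, the interval included the 10.5% of all genes. Ribosome biogenesis had 0 of 20 genes (upper limit 16.8%), while 4 had a shared region. Ribosomal protein genes had 5 of 20, led by RPL11 (4.22), RPS14 (4.03, MYC 5.08), RPL3 (4.03) and RPL10 (3.81). The MYC network had 2 of 13, MGA, a MAX partner (4.91, inside the gene), and MYC itself, with a region 17.7 kb away (4.02) that held no MYC peak. Mediator genes had 2 of 31, CCNC, the cyclin of the kinase module (4.11), and MED24. Hypoxia and glycolysis genes had 2 of 22 at HK1, hexokinase 1 (4.12, MYC 5.74), and LDHA, lactate dehydrogenase A (3.61), while 10 had a shared region (45.5%, 24.4 to 67.8%). Stress genes had 2 of 16, CEBPB (5.63) and DDIT4 (4.02), the AP-1 family 3 of 19, FOSB (3.86), FOSL1 (3.31) and JUN (3.30, MYC 5.03), and actin and focal adhesion genes 2 of 25, FLNA (3.81, the region also counted for RPL10) and LIMA1 (3.23).

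For marker genes of other cell types the intervals included the 10.5% of all genes. Acinar genes had 0 of 15 (upper limit 21.8%), islet genes 2 of 15 at PAX6 (3.55) and SYP (3.52), immune genes 2 of 14, with CD68 (3.56) among them, and fibroblast genes 1 of 11 at COL1A1 (3.17). The islet, immune and fibroblast shares were 13.3%, 14.3% and 9.09%. Over the chromosomes, the share of distal MED30 regions without MED17 ran between 33.0% (26.9 to 39.7%) on chromosome 17 and 52.4% (39.4 to 65.1%) on chromosome 21. The gene-dense chromosome 19 was next to the lowest at 34.0%.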

How the data were processed

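The deposited files were peak lists of 5 ChIP-seq libraries, 1 per group, with paired reads of 100 bp. Per the submitters' processing notes, reads were handled with MACS2, Bowtie2, Trim Galore and deepTools on hg38. Tool versions and any input control are not given in the labels. The deposited fold is a ratio of summit pileup to local background at each peak, with 1 added to both. At the low fragment counts of the shMED30 lists, this addition makes the fold much lower than the plain ratio. The authors' significance values were deposited as −log10 p and −log10 q, with a deposited score that is the q column times 10. As the deposited values show, the highest q was 0.0499 in the parental lists, against 0.0993 in the MYC lists of the shMED30 line. Peak summits were taken from the deposited summit offset.

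Regions were merged at 1 bp of overlap with Python 3.11.15, numpy 2.4.6, pandas 2.3.3 and scipy 1.17.1, and matplotlib 3.10.9 drew the figures. Gene positions (59098 genes, 19974 of them protein-coding, on chromosomes 1 to 22 and X) and 34961 promoter windows came from RefSeq on GRCh38.p14; 27 gene-free stretches exceeded 2 Mb. Summit pileup and local background were solved from fold and a Poisson p within 0.002 log10 units for 99.4% to 99.8% of peaks, which was tested on simulated data. With 1 library per group there was no test. Named regions were the 12 strongest without and 8 strongest with parental MYC, the 5 largest clusters, the 3 on either side of the 1 kb limit, the 5 with the highest MYC fold in each list of the shMED30 line, and up to 4 genes per gene list; further names are said to be later choices or follow from a count. Some genes that these rules name are not reported here. The regions, the 18 gene lists and the rules were chosen with earlier results of these data known. Motifs had been planned for the sequence around each summit; no genome sequence was used here, so they were counted in RefSeq promoter windows. Alternatives covered the overlap rule, peak strength, distance limits and gene-free stretches.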

Additional observations from a re-analysis of the deposited data

How the results depend on the processing

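The 9 summary values were recomputed under 9 alternatives, 81 values in all, of which 43 moved beyond their counting interval (1.5 times for the number of regions) and 38 did not; the causes were not tested. With a reciprocal overlap of 50% required, the share with parental MYC was 36.1%, inside protein-coding genes 43.1%, with a MED17 region within 5 kb 42.7%, with MYC in the shMED30 line 4.16% with doxycycline and 7.11% without it, within 12500 bp of another region 18.5%, within 1 kb of a noncoding gene boundary 20.9%, and the median MED30 fold 4.01. With MED30 peaks of −log10 q of at least 10, which left 71 regions, those values were 40.8% (MYC), 33.8% (MED17 within 5 kb), 4.23% and 9.86% (doxycycline and none), 0% (near another region), 19.7% (noncoding boundary) and 5.33 (fold). With the upper 50% of the MED30 list, 222 regions were left, with 33.8% (MYC), 12.2% (MED17 within 5 kb), 4.05% and 7.66% (doxycycline and none), 0% (near another region), 23.9% (noncoding boundary) and 5.25 (fold). With the upper 50% of the MED17 list there were 2614 regions, with 37.8% (MYC), 41.9% (inside genes), 3.33% (MED17 within 5 kb), 4.51% and 7.27% (doxycycline and none), 23.6% (near another region), 21.7% (noncoding boundary) and 4.13 (fold). With no gene-free stretch dropped there were 1871 regions, with 34.0% (MYC), 31.1% (inside genes), 6.63% and 11.4% (doxycycline and none), 18.0% (near another region), 12.3% (noncoding boundary) and 3.98 (fold). The share with a MED17 region within 5 kb was 13.3% when regions with a MED17 peak within 500 bp were left out and 13.0% for regions over 5 kb from coding gene boundaries. The noncoding boundary share was 0% by construction for regions over 1 kb from every RefSeq gene boundary. The reciprocal rule adds regions that overlap a MED17 peak in part, so its share with MED17 within 5 kb was raised by construction. With the upper 50% of the MED17 list, regions with a weaker called MED17 peak counted as lacking MED17. Distances to MED17 were then measured to the shortened list. Raising either threshold raised the share with MYC, so the main value holds for the lists at the authors' threshold. Dropping stretches over 1 Mb, which left 1508 regions, moved no value. In addition, limiting the MYC lists of the shMED30 line to a q of at most 0.05, chosen after seeing the data, gave 2.05% with doxycycline and 4.04% without it, within the counting intervals.

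No paired analysis was possible because each group has 1 library, and a fit without 1 library has no meaning here. The lowest summit called in the MED17 list held 8 fragments, so absence of a peak is absence above that limit.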
